A study of Mus musculus with 6 samples.

Results

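The genes described here encode the subunits of the transcription factor AP-1 and 3 other early-response factors, in a mouse sarcoma cell line with and without a knockout of Setd1a. The 10 genes were chosen by name as a set of AP-1 subunits (Fos, Fosb, Fosl1, Fosl2, Jun, Junb, Jund) and immediate early factors (Atf3, Egr1, Klf6), out of 55471 genes in the count table. The cells were a mouse undifferentiated pleomorphic sarcoma (UPS) line labelled as metastatic and grown in medium with fetal bovine serum. RNA sequencing covered 3 libraries of wild-type control cells, whose titles carry the tag AAV2, and 3 libraries of Setd1a knockout cells, whose titles carry a numeric tag. Setd1a encodes a histone H3 lysine methyltransferase of the COMPASS complexes. The labels do not say how the knockout was made, whether its cells were 1 clone or a pool, what either tag stands for, or whether replicates were separate cultures. The p-values rest on the spread between these libraries alone, part of which may be technical, and the tag and the knockout cannot be told apart.

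AP-1 is a pair of basic leucine zipper proteins, either a FOS protein with a JUN protein or 2 JUN proteins, that binds a short DNA element in the control regions of genes for growth, invasion and inflammation. Growth factors and stress switch on immediate early genes such as Fos, Egr1 and Atf3 through MAP kinases, serum response factor and CREB-related factors, without a need for new protein synthesis. Their mRNAs are usually short-lived, whereas Fosl1 accumulates in cells with lasting ERK signalling and is known for its high level in many invasive mesenchymal tumour cells. JUN activates its own gene, JUNB and JUND can oppose JUN, and ATF3 is a stress-induced relative that pairs with JUN proteins.

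The promoters of 4 members are shown because Atf3 was the member with the largest change, Jun and Klf6 held the same element, and Fos had the lowest level. Of the 10 members, 8 had an entry in the RefSeq promoter table (build GRCm38.p6); Fosl1 and Egr1 were not matched. Each run gives the 250 bases before the RefSeq start, 5′ to 3′ on the gene's strand, with motif matches in capitals. The windows are chr1:191183334-191183583 on the minus strand for Atf3, chr4:95052223-95052472 on the minus strand for Jun, chr13:5861239-5861488 on the plus strand for Klf6 and chr12:85473640-85473889 on the plus strand for Fos.
Atf3: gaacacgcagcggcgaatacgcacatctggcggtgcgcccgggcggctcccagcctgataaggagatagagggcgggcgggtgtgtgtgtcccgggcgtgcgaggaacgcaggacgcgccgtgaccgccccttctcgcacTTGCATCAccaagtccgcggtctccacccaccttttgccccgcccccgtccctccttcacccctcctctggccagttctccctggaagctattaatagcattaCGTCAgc
Jun: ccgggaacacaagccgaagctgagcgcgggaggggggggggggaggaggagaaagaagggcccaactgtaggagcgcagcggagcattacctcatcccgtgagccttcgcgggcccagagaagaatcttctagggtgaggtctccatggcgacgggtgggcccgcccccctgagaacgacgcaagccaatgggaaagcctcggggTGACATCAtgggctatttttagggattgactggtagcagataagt
Klf6: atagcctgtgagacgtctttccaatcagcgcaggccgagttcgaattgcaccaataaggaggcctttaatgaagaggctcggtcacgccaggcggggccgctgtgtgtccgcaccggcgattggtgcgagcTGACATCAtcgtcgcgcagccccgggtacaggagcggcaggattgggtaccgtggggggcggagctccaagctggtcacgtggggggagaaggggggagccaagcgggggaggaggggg
Fos: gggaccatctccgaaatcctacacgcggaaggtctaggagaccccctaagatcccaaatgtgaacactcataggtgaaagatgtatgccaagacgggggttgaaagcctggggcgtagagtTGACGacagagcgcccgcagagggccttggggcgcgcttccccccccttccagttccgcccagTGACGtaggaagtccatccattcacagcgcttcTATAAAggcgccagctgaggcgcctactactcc
The motifs searched, on both strands, were the AP-1 element TGANTCA, the full cyclic AMP response element TGACGTCA, its TGACG part, the JUN promoter element TGACATCA, the ATF4-type element TGATGNAA, the CArG box bound by serum response factor, and TATAAA. The short element TGACG lies within TGACGTCA, so each full element also counts as a match to its part. Jun held TGACATCA 45 to 38 bases before its start and Klf6 held it 119 to 112 bases before; 2.93% of the 32851 promoter windows of this length held it. Atf3 held TGATGNAA, read on the other strand, 110 to 103 bases before the start, as did 3.45% of windows, and TGACG, read on the other strand, 7 to 3 bases before it, as did 17.8%. Fos held TGACG at 129 to 125 and at 66 to 62 bases before the start, and TATAAA, found in 12.4% of windows, 33 to 28 bases before it. TGANTCA, TGACGTCA and the CArG box, present in 6.75%, 1.55% and 1.47% of windows, had no match in the 8 member windows. Bases further than 250 before the start were not searched, so elements beyond the windows, in Fos or any other member, would not have been found. A match describes these letters only, and binding was not measured. The annotated Atf3 gene counted here reaches position 191218039 on the minus strand, upstream of the window shown. Its annotated 5′ end is thus not in the window, and which start the transcripts used was not measured. The same limit holds for 2 windows searched but not shown. That of Fosl2 (32136222 to 32136471) lies inside the annotated gene, which begins at 32135801. That of Jund ends at 70697738, before the annotated start at 70698949.

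Library totals lay between 17749533 and 18272622 counts, and 13044 genes had enough counts to be tested. Levels are CPM, counts scaled to library size and corrected for library composition by TMM in edgeR; 1 CPM is about 18 counts. Setd1a was measured at 71.0, 75.3 and 73.5 CPM in control replicates 1, 2 and 3 and at 53.2, 68.7 and 56.3 CPM in the knockout replicates, with no overlap between the groups and a log2 change of -0.30 ± 0.12 (SE; edgeR adjusted p = 0.426). Of its exonic bases, 52.3% are shared with other annotated genes, so its counts are uncertain. The 6 mesenchymal markers, mostly Vim, summed to between 6568 and 7293 CPM in the controls and to between 5788 and 6555 CPM in the knockouts, so the sums did not overlap. Of these markers 5 had a log2 change below 0, with a median of -0.19, and 0 were called by edgeR with or without the block or by DESeq2; their part in the results was not tested. All 4 T cell markers were listed at 0 and skeletal muscle markers summed to at most 0.110 CPM. Of the macrophage markers, Adgre1 was listed at 0 and Ptprc averaged 0.111 CPM in the controls, against 0.166 CPM in the knockouts; all 7 summed to between 20.3 and 22.6 CPM in the controls, against 19.8 and 28.3 CPM in the knockouts, mostly from Cd14 and Cd68. The 6 endothelial markers summed to between 1.33 and 2.63 CPM in the controls, against 2.89 and 4.35 CPM in the knockouts. The 6 epithelial markers summed to between 52.9 and 91.4 CPM and between 50.1 and 95.6 CPM, mostly from Krt18, with Cdh1 at or under 0.129 CPM on average. Among them Krt19, named after its values were seen, held 2.05, 4.19 and 5.21 CPM in the controls, against 3.91, 7.33 and 9.07 CPM in the knockouts. Krt19 rose with the block, by a log2 change of 0.84 ± 0.15 (SE, edgeR adjusted p = 0.0327), where 1.43% of all genes were called higher. It was not called by edgeR without pairing (adjusted p = 0.485) or by DESeq2 (adjusted p = 0.392). With the block Krt18, Krt8 and Epcam had log2 changes of -0.11 ± 0.08, 0.27 ± 0.16 and 0.07 ± 0.41 (SE, edgeR adjusted p between 0.401 and 0.952). The part of Krt19 in the results was not tested. Mitochondrial transcripts took 2.80% ± 0.28 of counts in the controls, against 3.71% ± 0.22 in the knockouts (SD, n = 3), a difference whose part in the results was not tested.

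Of the 10 members, Atf3 differed most, at 1.79-fold higher in the knockout, and the other 9 lay between 0.854-fold and 1.17-fold of the control. All 10 passed the filter on low counts. The edgeR quasi-likelihood test without pairing called 0 of the 10 at an adjusted p under 0.05, as it called 0% of the 13044 genes; at an unadjusted p under 0.05 it had 1 member, Atf3, which was higher, against 10.0% of all genes (5.50% higher and 4.51% lower). With the replicate number as a block, edgeR called 1 member, Atf3, higher and 0 lower, where 2.28% of all genes were called (1.43% higher and 0.851% lower). DESeq2 without pairing also called Atf3 alone among the members, where it called 1.02% of all genes (0.713% higher and 0.307% lower). The limma-voom test had 0 calls among the members and called 0% of all genes. Of the 10 log2 changes, 7 lay above 0, as did 50.2% of those of all genes, and the members' median was 0.14 against 0.00066 over all genes. In 2 members, Atf3 and Klf6, the groups did not overlap, both with the knockout higher, where 15.3% of all genes did not overlap (7.49% with the knockout higher and 7.77% with it lower).

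**Figure D1:**
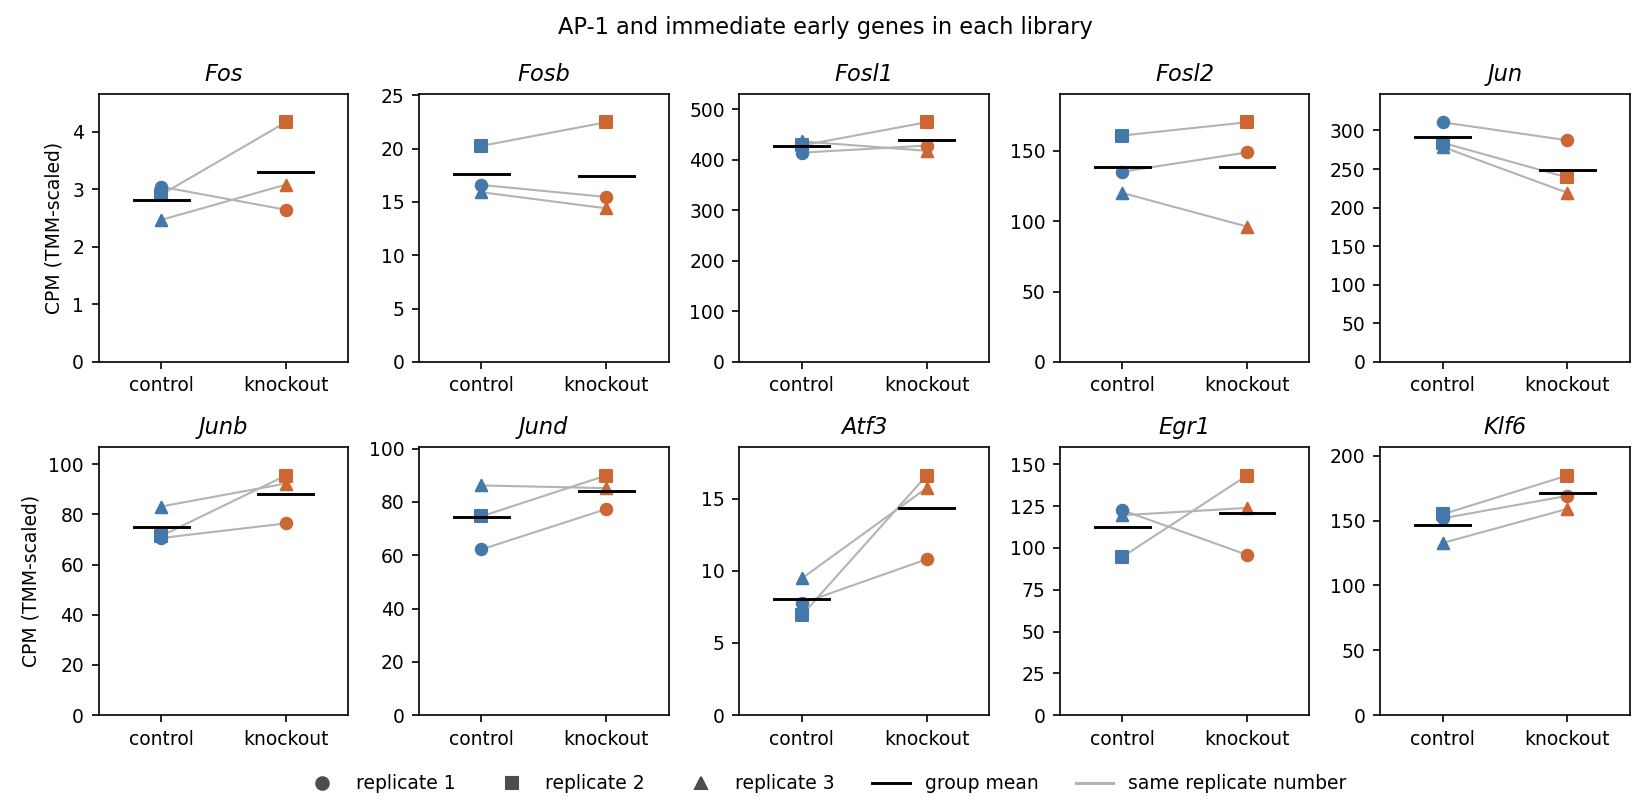
TMM-scaled CPM of each of the 10 genes (y axis, from 0) in the 3 control and 3 knockout libraries; each point is a library, black bars are group means and grey lines join libraries with the same replicate number. Atf3 and Klf6 have every knockout library above every control, and Jun falls along all 3 lines.

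Among the FOS subunits, Fosl1 was abundant and Fos scarce, and no subunit differed between the groups beyond the spread of the libraries. Fos (ENSMUSG00000021250, chromosome 12, 85473890 to 85477273), the founding subunit and classic serum-induced gene, was measured at 3.04, 2.90 and 2.47 CPM in the controls, against 2.64, 4.16 and 3.08 CPM in the knockouts. The groups overlapped, and with 44 to 75 counts per library its counting error was wide. Its log2 change was 0.23 ± 0.24 (SE; edgeR adjusted p = 0.858), with a 95% interval from -0.30 to 0.77. Fosb (ENSMUSG00000003545, chromosome 7, 19302696 to 19310051), which encodes a FOS protein best known from neurons, held 16.6, 20.3 and 15.9 CPM in the controls, against 15.5, 22.5 and 14.4 CPM in the knockouts. Replicate 2 was the highest library in each group, and the log2 change was -0.012 ± 0.19 (SE; edgeR adjusted p = 0.994).

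Fosl1 (ENSMUSG00000024912, chromosome 19, 5447547 to 5455946), which encodes FRA1, was measured at 414, 429 and 437 CPM in the controls, against 429, 475 and 418 CPM in the knockouts. The 6 libraries lay close together, with knockout replicate 2 the highest. Its log2 change was 0.05 ± 0.10 (SE; edgeR adjusted p = 0.957), and the 95% interval ran from 0.88-fold to 1.21-fold of the control. Of its exonic bases, 57.2% are shared with Ccdc85b on the opposite strand; without a stated strand setting, how reads on those bases were counted is unknown, so the level of Fosl1 is uncertain. Fosl2 (ENSMUSG00000029135, chromosome 5, 32135801 to 32157842), which encodes FRA2, held 135, 161 and 120.1 CPM in the controls, against 149, 170.3 and 96.2 CPM in the knockouts. Replicate 2 was again the highest and replicate 3 the lowest in each group, and the log2 change was -0.0027 ± 0.19 (SE; edgeR adjusted p = 0.999). With the replicate block the standard error of Fosl2 was 0.10 and the 95% interval ran from 0.845-fold to 1.13-fold.

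The JUN subunits did not move together: Jun was lower in each pair of same-numbered libraries, Junb was higher in each, and none passed the test. Jun (ENSMUSG00000052684, chromosome 4, 95049034 to 95052222), a single-exon gene for the strongest activator of the family, was measured at 311, 284 and 279 CPM in the controls, against 287, 239 and 219 CPM in the knockouts. Knockout replicates 2 and 3 lay below all controls, and knockout replicate 1 lay within their range. The log2 change of Jun was -0.23 ± 0.12 (SE) without pairing and -0.24 ± 0.08 with the block, at edgeR adjusted p-values of 0.582 and 0.131. Jun was the 1 member lower in every pair, where 21.6% of all genes were. Of the exonic bases of Jun, 7.275% are shared with its antisense gene Junos, looked at after its values were seen, which averaged 11.5 CPM in the controls, against 15.2 CPM in the knockouts.

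Junb (ENSMUSG00000052837, chromosome 8, 84974484 to 84978718), whose protein often restrains JUN, held 70.6, 71.4 and 83.2 CPM in the controls, against 76.4, 95.5 and 92.3 CPM in the knockouts. Knockout replicates 2 and 3 exceeded all controls, while knockout replicate 1 lay below control replicate 3. The log2 change of Junb was 0.23 ± 0.12 (SE; edgeR adjusted p = 0.571), and 0.186 was the adjusted p with the block. Jund (ENSMUSG00000071076, chromosome 8, 70698949 to 70700616), the subunit that is usually expressed without stimulation, was measured at 62.2, 74.6 and 86.2 CPM in the controls, against 77.3, 89.9 and 85.2 CPM in the knockouts. Its groups overlapped, the ratio in pair 3 was near 1, and the log2 change was 0.18 ± 0.13 (SE; edgeR adjusted p = 0.748). Of the exonic bases of Jund, 52.6% are shared with the antisense gene Gm11175, which held 31 counts in all libraries together, so the counts of Jund are uncertain. Junb shares 7.518% of its exonic bases with Prdx2 on the opposite strand, which averaged 229.7 CPM in the controls, against 209.8 CPM in the knockouts.

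Atf3 (ENSMUSG00000026628, chromosome 1, 191170296 to 191218039), the stress-induced factor, was measured at 7.75, 6.92 and 9.47 CPM in the controls, against 10.8, 16.6 and 15.7 CPM in the knockouts. Every knockout library lay above every control (exact two-sided permutation p = 0.1, the smallest that 3 against 3 can give), with knockout replicate 1 close to control replicate 3. The means were 8.05 ± 1.30 and 14.4 ± 3.13 CPM (SD, n = 3), from 124 to 299 counts per library. The log2 change was 0.84 ± 0.20 (SE) without pairing, with an edgeR adjusted p of 0.206 and a 95% interval from 1.31-fold to 2.43-fold. With the block Atf3 rose by a log2 change of 0.82 ± 0.16 (SE; edgeR adjusted p = 0.0344), and DESeq2 without pairing gave an adjusted p of 0.0236. The call with the block was lost without pair 2 (edgeR adjusted p = 0.126) or pair 3 (0.0852) and held without pair 1 (7.18e-06). Each of these fits rests on fewer libraries, and the fit without pair 1 called 507 genes higher, against 187 with all pairs. Its p-value is therefore not to be set against that of the full fit. The log2 ratios of knockout to control were 0.48, 1.26 and 0.73 in the 3 pairs.

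Egr1 (ENSMUSG00000038418, chromosome 18, 34859823 to 34864984), a zinc finger factor induced by serum and stress, held 122.6, 94.6 and 119.5 CPM in the controls, against 95.9, 143 and 124 CPM in the knockouts. The groups overlapped and the pairs went different ways, with log2 ratios of -0.35, 0.60 and 0.05. Its log2 change was 0.11 ± 0.16 (SE; edgeR adjusted p = 0.925). Klf6 (ENSMUSG00000000078, chromosome 13, 5861482 to 5870394), a zinc finger factor of the KLF family, was measured at 152, 155 and 133 CPM in the controls, against 169, 185 and 159 CPM in the knockouts. The lowest knockout library lay just above the highest control (exact two-sided permutation p = 0.1), and the log2 ratios were 0.16, 0.25 and 0.26 in pairs 1, 2 and 3. The log2 change of Klf6 was 0.22 ± 0.11 (SE), with an edgeR adjusted p of 0.527 without pairing and 0.122 with the block. In all, 3 members, Atf3, Junb and Klf6, were higher in every pair, where 19.9% of all genes were.

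**Figure D2:**
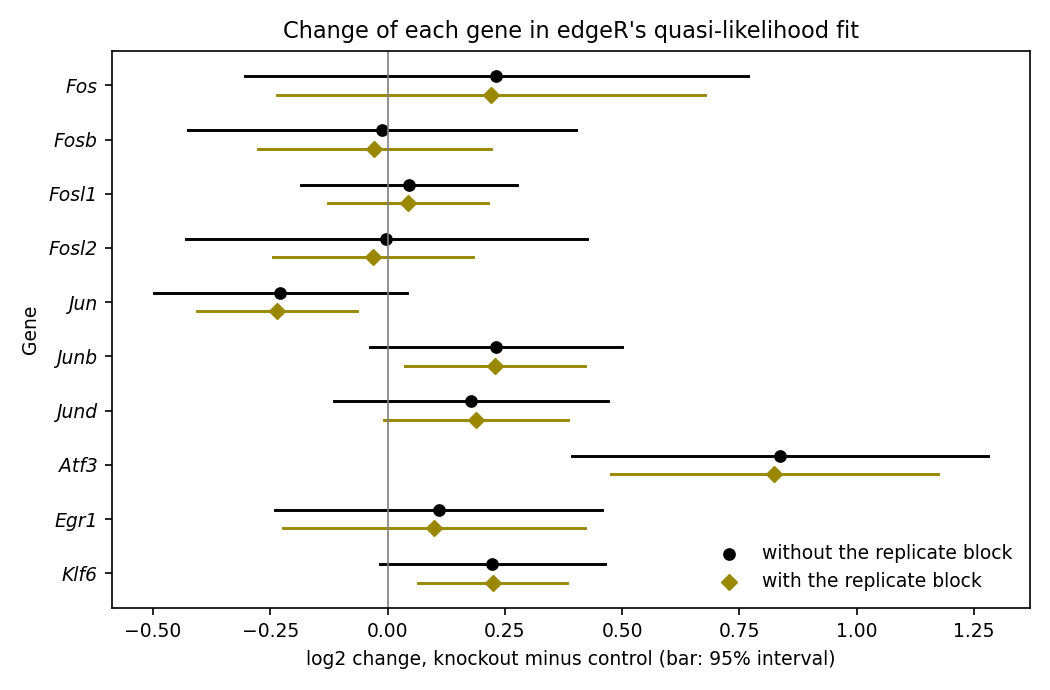
Log2 change from control to knockout (x axis) of each gene (y axis) in edgeR's quasi-likelihood fit without (circles) and with (diamonds) the replicate number as a block; bars are 95% intervals for 3 libraries per group. Atf3 has an interval above 0 in both fits, Jun, Junb and Klf6 have intervals on 1 side of 0 with the block only, and the other 6 cross 0 in both; these intervals are not adjusted for the number of genes.

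Per length of exon, Fosl1 had the highest level of the 10 and Fos the lowest, in the same order in both groups. In CPM per kb of exonic sequence, the control means were 209.9 ± 5.56 for Fosl1, 91.3 ± 5.37 for Jun, 44.6 ± 7.20 for Jund, 33.3 ± 2.73 for Klf6, 32.6 ± 3.06 for Junb and 25.03 ± 3.43 for Egr1 (SD, n = 3). Below these came Fosl2 at 14.3 ± 2.13, Atf3 at 3.74 ± 0.60, Fosb at 2.82 ± 0.37 and Fos at 1.19 ± 0.13 CPM per kb (SD, n = 3). The library ranges of Klf6 and Junb overlapped in both groups, and those of Atf3 and Fosb overlapped in the controls and not in the knockouts, where Atf3 averaged 6.67 ± 1.45 and Fosb 2.80 ± 0.70 CPM per kb (SD, n = 3). The ranges of all other neighbours in the order were separate. In a choice made after seeing the data, each gene's full counts were divided by its exonic bases not shared with another gene. This scale, per unshared length, put Fosl1 at 490.4 and Jund at 94.0 CPM per kb in the controls, close to Jun at 98.5. Reads on shared bases were not removed for it, so it overstates a level wherever such reads were counted. On that scale the knockout mean of Jund was above that of Jun, at 106 against 84.1 CPM per kb. Junb was above Klf6 in both groups. The level of Jund depends on its annotated length as well, since the RefSeq promoter window ends at position 70697738 and the annotated gene used here begins at 70698949.

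**Figure D3:**
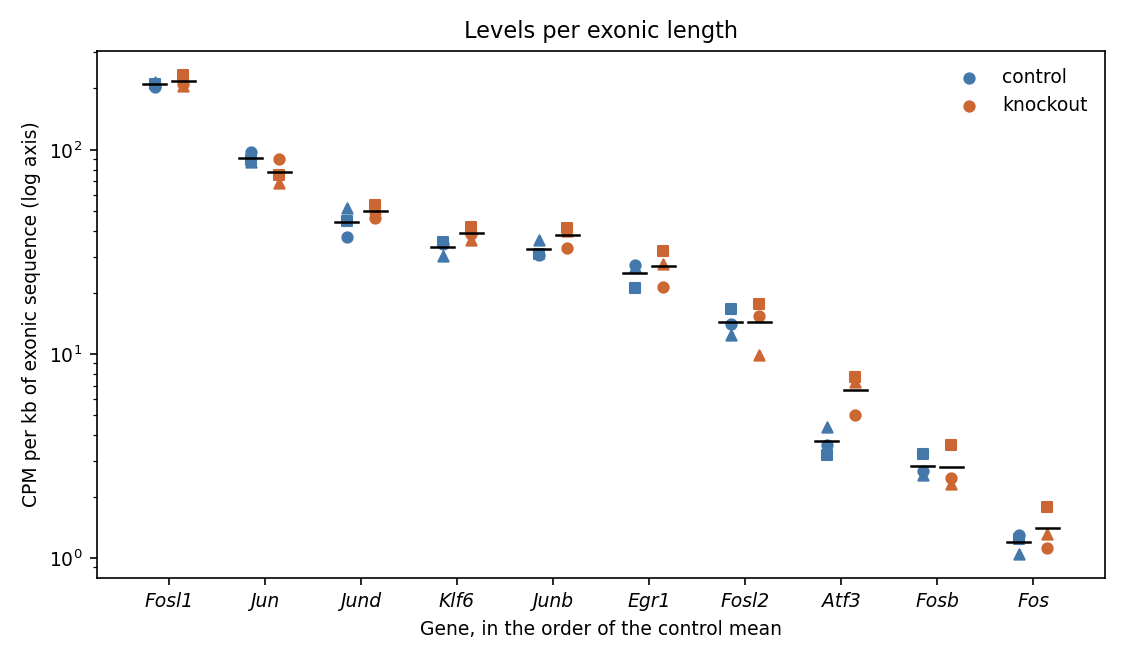
CPM per kb of exonic sequence (y axis, log scale) of each gene, ordered by its control mean (x axis); each point is a library and black bars are group means. Fosl1 lies above 200 CPM per kb in every library, and Fos lies between 1.05 and 1.77.

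Within the FOS family, Fosl1 held 90.9% to 93.8% of the summed level per length in the 6 libraries, Fosl2 4.53% to 7.16%, Fosb 1.05% to 1.404% and Fos 0.454% to 0.690%. The share of Fosl1 was 92.0% ± 1.08 in the controls, against 92.2% ± 1.44 in the knockouts (SD, n = 3). Without division by length it was 70.0% to 78.6%, and per unshared length 95.9% to 97.3%, so Fosl1 led on each scale. Within the JUN family the make-up was more even and differed between libraries. Jun held 58.9%, 54.05% and 49.9% of the family level in control replicates 1, 2 and 3 and 53.1%, 44.0% and 43.0% in the knockout replicates. The share of Jun was lower in the knockout in each pair, at 54.3% ± 4.52 against 46.7% ± 5.57 (SD, n = 3), although the groups overlapped. Junb went from 19.3% ± 1.13 to 23.01% ± 2.99 and Jund from 26.4% ± 3.53 to 30.3% ± 2.58 (SD, n = 3), each higher in every pair. The make-up of the JUN family depended on the scale: the control share of Jund was 41.1% ± 4.44 per unshared length and 16.9% ± 2.64 without division by length (SD, n = 3). Per unshared length Jund led in every knockout library, at 45.9% ± 3.06 against 36.3% ± 5.06 for Jun (SD, n = 3). It also led in control replicate 3, at 45.0% against 38.9% for Jun. Jund and Jun were nearly level in knockout replicate 1, at 42.3% against 42.1%, and in control replicate 2, at 42.1% against 42.9%. The share of Jun was lower in the knockout in each pair on all 3 scales. Shares of a family sum to 100%, so they are not independent of each other. The FOS family summed to 1.36 ± 0.05 times the JUN family per length in the controls, against 1.41 ± 0.08 times in the knockouts (SD, n = 3). Per unshared length it summed to 2.24 ± 0.09 times in the controls, against 2.26 ± 0.10 times in the knockouts (SD, n = 3).

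**Figure D4:**
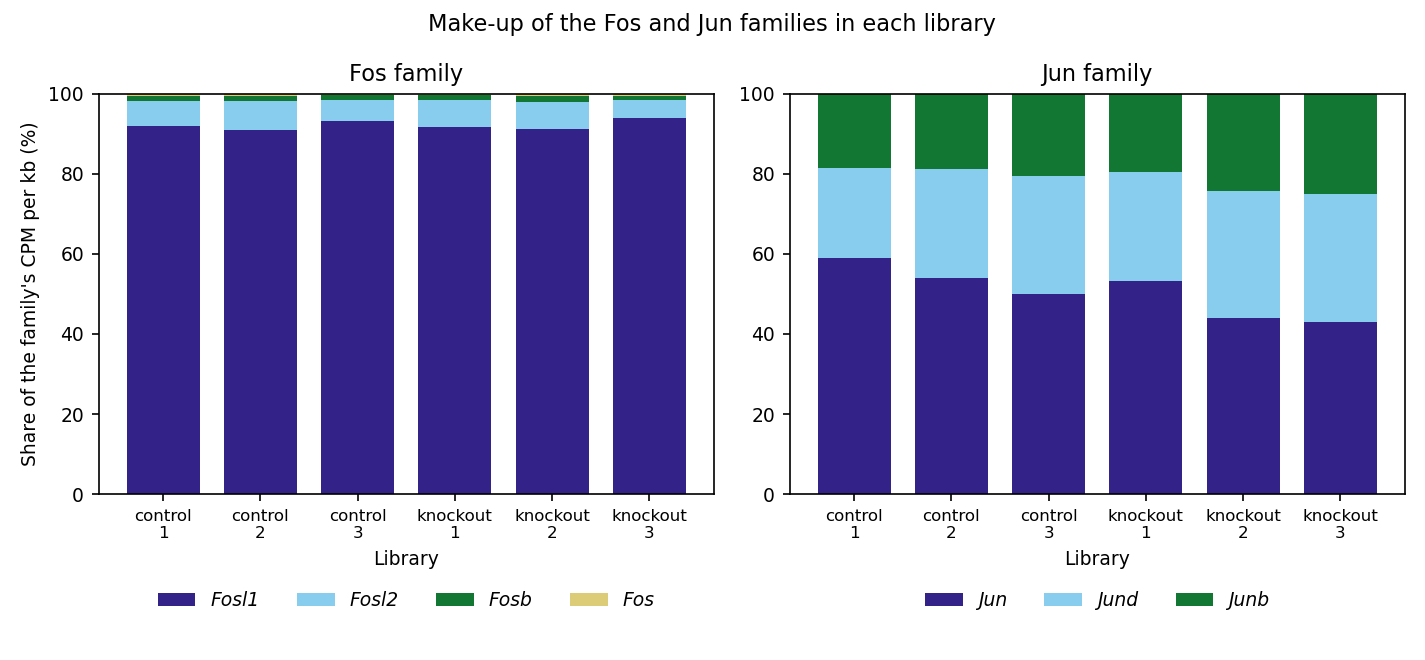
Share of each subunit in the summed CPM per kb of the Fos family (left) and the Jun family (right), in percent (y axis), for each of the 6 libraries (x axis). Fosl1 fills over 90% of the Fos family in every library, and the Jun segment is smaller in each knockout library than in the control of the same number.

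Other genes of the pathway were taken from lists made by function. Of 17 other leucine zipper proteins that pair with FOS or JUN, 12 were tested. Of these, 0 were called by edgeR with or without the block or by DESeq2. At an unadjusted p under 0.05 in edgeR without the block there was 1, Maf, which was higher, against 10.0% of all genes (5.50% higher). Maf, named after its values were seen, averaged only 1.19 CPM in the controls, against 1.93 CPM in the knockouts. The median log2 change of the 12 was 0.12, and 10 of 12 lay above 0, where 50.2% of all genes did. The antioxidant factor gene Nfe2l2 had a log2 change of -0.22 ± 0.14, the small MAF genes Mafk and Maff 0.18 ± 0.13 and 0.18 ± 0.16, and Atf7 0.16 ± 0.13 (SE; edgeR adjusted p between 0.675 and 0.807). Atf4, the central factor of the integrated stress response, chosen after its values were seen, held 411, 315 and 438 CPM in the controls, against 342, 302 and 430.5 CPM in the knockouts (log2 change -0.11 ± 0.16, SE; edgeR adjusted p = 0.924). Its partner gene Ddit3, chosen likewise, had a log2 change of 0.15 ± 0.22 (SE; edgeR adjusted p = 0.925).

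Of 40 other immediate early genes, 39 were tested and 0 were called without pairing; with the block Ier5l fell and 0 rose (0.851% and 1.43% of all genes), and DESeq2 also called Ier5l lower (0.307% of all genes). Their median log2 change was 0.07. Ier5l, an immediate early response family gene, held 113, 108 and 94.3 CPM in the controls, against 81.4, 73.8 and 49.3 CPM in the knockouts, so the groups did not overlap. It fell by 0.65 ± 0.10 on the log2 scale with the block (SE; edgeR adjusted p = 0.0226), a call lost without pair 3 (0.0611). Rhob, a small GTPase gene, had a log2 change of 0.41 ± 0.14, Egr3 -0.40 ± 0.17 and Arc 0.43 ± 0.20 (SE), at edgeR adjusted p-values of 0.367, 0.483 and 0.512.

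Of 21 genes induced by ERK, most of them its feedback inhibitors, all were tested, with a median log2 change of 0.04; 0 were called without pairing or by DESeq2, and with the block 1 rose and 1 fell (1.43% and 0.851% of all genes). Dusp1, a phosphatase of MAP kinases and itself an immediate early gene, went from 23.04 ± 3.02 to 32.01 ± 6.13 CPM (SD, n = 3; edgeR with the block, adjusted p = 0.0466). Etv5, an ETS factor, went from 105 ± 6.15 to 80.04 ± 7.66 CPM (SD, n = 3; edgeR with the block, adjusted p = 0.0471). The Dusp1 call was lost without pair 2 (0.253) or pair 3 (0.103), and the Etv5 call without any of the 3 pairs (0.0570 to 0.0930). The feedback inhibitor gene Spry1 had a log2 change of -0.47 ± 0.18 and the phosphatase gene Dusp8 0.35 ± 0.15 (SE; edgeR adjusted p = 0.408 and 0.459). Of 31 kinases and serum response factor partners upstream of AP-1, 30 were tested, 0 were called by edgeR with or without the block or by DESeq2, and the median was 0.01. The RAF kinase gene Braf had a log2 change of 0.32 ± 0.13, the ERK-activated kinase genes Rps6ka2 and Rps6ka1 -0.20 ± 0.11 and -0.18 ± 0.11, and the ternary complex factor gene Elk3 -0.17 ± 0.10 (SE; edgeR adjusted p between 0.456 and 0.664).

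Of 32 textbook AP-1 targets, 27 were tested, and 3 rose and 0 fell with the block (1.43% and 0.851% of all genes), while 0 were called without pairing and 3 were called higher by DESeq2 (0.713% of all genes). Their median log2 change was 0.21, and 18 of 27 lay above 0, where 50.2% of all genes did. Among them, the chemokine gene Ccl2 held 32.2, 28.7 and 25.7 CPM in the controls, against 50.8, 54.7 and 53.5 CPM in the knockouts, a log2 change of 0.88 ± 0.10 with no overlap between the groups (SE; edgeR with the block, adjusted p = 0.0155). The cornified envelope gene Sprr1a held 1.77, 1.17 and 2.35 CPM in the controls, against 4.41, 4.88 and 8.19 CPM in the knockouts, also with no overlap, and its log2 change was 1.71 ± 0.20 (SE; edgeR with the block, adjusted p = 0.0155). Dcn, which encodes decorin, had an adjusted p of 0.0566 in the same edgeR test. Without pair 3 the test with the block called 0 genes of any kind, these 3 included. The target list had 6 higher genes without pair 1 and 6 without pair 2, where 507 and 140 genes in all were called higher. Of 13 KLF relatives and EGR co-repressors, 12 were tested and 0 were called by edgeR with or without the block or by DESeq2. Their log2 changes ran from -0.97 to 0.53, with a median of 0.015. At an unadjusted p under 0.05 in edgeR without the block, 2 were higher and 1 lower, against 5.50% and 4.51% of all genes. Of these only Klf7 had a mean of 5 CPM or more in the higher group. Klf7, Klf5 and Klf3 had log2 changes of 0.36 ± 0.13, 0.24 ± 0.20 and 0.12 ± 0.10, and Nab2, a co-repressor of EGR1, -0.13 ± 0.14 (SE, edgeR adjusted p between 0.402 and 0.873).

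Heat shock genes mark cell stress and were measured beside the immediate early genes. Of 16 tested, 3 rose and 0 fell with the block (1.43% and 0.851% of all genes), 0 were called without pairing and DESeq2 called 1 higher, Hspb1 (0.713% of all genes); the median log2 change was -0.012. The 3 were Hspb1, Cryab and Hspb8, all small heat shock proteins. Cryab went from 157 ± 14.3 to 199 ± 17.4 CPM and Hspb8 from 54.4 ± 9.32 to 70.9 ± 11.3 CPM (SD, n = 3; edgeR with the block, adjusted p = 0.0391 and 0.0419). The calls of Cryab and Hspb8 were lost without pair 2 or pair 3, and that of Hspb1 without pair 3 only (edgeR with the block, adjusted p = 0.0611). Bag3, a partner of the small heat shock proteins, had a log2 change of -0.13 ± 0.10 (SE; edgeR adjusted p = 0.779).

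**Figure D5:**
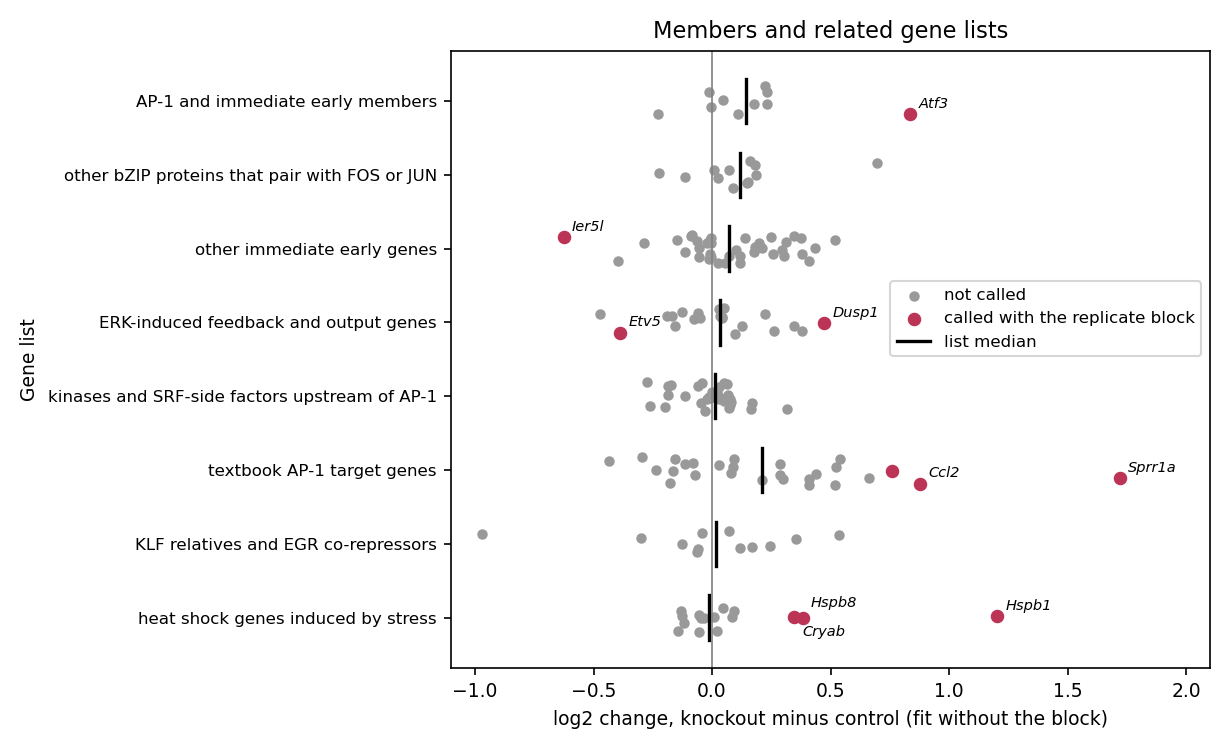
Log2 change from control to knockout in edgeR's fit without the block (x axis) of the tested genes of the member set and 7 related lists (y axis); each point is a gene, black bars are medians, and red points were called at an adjusted p under 0.05 in the fit with the replicate block, 1 of them without a name. Atf3 is the 1 called member, and the medians of the 7 related lists lie between -0.012 and 0.21.

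Over the 6 libraries, the tested genes with profiles nearest to Fos were Sphk1, a sphingosine kinase gene, Tor1aip1 and Dbn1, whose log2 CPM, centred on their own means, differed from those of Fos by 0.05, 0.06 and 0.06 on average. Those nearest to Jun were Mtap, which encodes methylthioadenosine phosphorylase, the nuclear receptor gene Nr2f1 and Armcx2, at mean differences of 0.04, 0.04 and 0.04. Mtap lies on chromosome 4 (89137122 to 89181081), as Jun does. It held 393.5, 364 and 356 CPM in the controls, against 339, 304 and 295 CPM in the knockouts, so its groups did not overlap. With 6 libraries and 13044 genes, close profiles arise easily, and the lists describe likeness in these libraries only.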

How the data were processed

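RNA of 6 cultured cell samples was sequenced. The authors deposited a table of raw counts per Ensembl gene with no normalization; STAR, featureCounts, DESeq and the mm10 build are named per the submitters' processing notes, with no role or version, and the annotation, strand setting and rule for reads matching several genes: not given in the sources used here. Groups and replicate numbers came from the sample titles. Symbols, coordinates and exonic lengths came from GENCODE M21 (GRCm38, the assembly mm10 names), which matched 55230 of 55471 identifiers. The members and lists were chosen with earlier results of these data known.

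The counts were fitted with edgeR 4.0.16 under R 4.3.3, using TMM, the filter on low counts by group (it removed at most 0.127% of a library's counts), and its quasi-likelihood test (two-sided), with p-values adjusted by Benjamini-Hochberg over 13044 genes at 0.05, without pairing and blocked on the replicate number. The blocked fit is given because deviations from the group means correlated by 0.15, 0.46 and 0.38 between libraries of the same number, each above the limit of 0.1; the pairing comes from the data, not the labels. DESeq2 1.42.0, limma 3.58.1, other scalings, other filters and leaving out libraries or pairs were alternatives. No 2 libraries of a group agreed within sampling noise (chi-square per degree of freedom 21.6 to 40.04). Steps were tested on simulated counts. Genes named were Setd1a, the members, up to 4 per list with the smallest raw p without pairing and a mean of 5 CPM or more in the higher group, and the 3 nearest profiles to Fos and to Jun. In the target list, 1 gene is counted but not reported here by name.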

Additional observations from a re-analysis of the deposited data

How the results depend on the processing

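Without pairing, edgeR called 0 genes in either direction. With the replicate block it called 187 and 111, with the block and DESeq2's size factors 193 and 124, with the DESeq2 test 93 and 40, and with no filter on low counts 62 and 12. Leaving out 1 library without pairing gave 0 to 30 higher and 0 to 1 lower, the calls coming without knockout replicate 1; leaving out 1 pair with the block gave 0 to 507 higher and 0 to 207 lower, at 140 and 54 without pair 2 and 0 in both directions without pair 3. Of the members, 1 was called higher, Atf3, with the block, with the block and DESeq2's size factors, with the DESeq2 test, and with the block without pair 1 (range 0 to 1 over left-out pairs), and 0 in the other settings. Without pairing, leaving out each library gave Atf3 log2 changes of 0.73 to 1.01 and adjusted p-values of 0.0663 to 0.542 in edgeR. Atf3, Fos, Junb, Jund and Klf6 stayed above 0 and Jun below 0 in every setting that gave a value; Fos did not pass the minimum mean of 5 CPM. Changes near 0 turned sign. With library totals alone, Fosb was at 0.012 and Fosl2 at 0.020; with the minimum of 5 CPM, Fosl2 was at 0.0032. Over left-out libraries or pairs, Fosb lay between -0.23 and 0.11 (0.11 without control replicate 2 or knockout replicate 3, 0.07 without knockout replicate 1, and with the block 0.011 without pair 1 and 0.017 without pair 3), and Fosl2 between -0.17 and 0.20 (0.12 without control replicate 2, 0.20 without knockout replicate 3, and 0.10 with the block without pair 3). Without knockout replicate 2, Fosl1 was at -0.0015 (unpaired range -0.0015 to 0.082, and 0.087 at most over pairs) and Egr1 at -0.020 (unpaired range to 0.26, and to 0.33 over pairs); with the block and without pair 2, Egr1 was at -0.14; without knockout replicate 3, Nab2 was at 0.0011 (lowest -0.28); Atf4 ranged from -0.27 to 0.0052, the latter without knockout replicate 2, and Ddit3 from -0.055, without control replicate 2, to 0.29. The cause of these changes was not tested. Fos, at 44 to 75 counts per library, is limited by depth.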

Other observations

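Some of the genes had the same order of replicate numbers in both groups. In both groups Fosb, Fosl2 and Klf6 were highest in replicate 2, next in replicate 1 and lowest in replicate 3. These are 3 of the 10 members, and 6.92% of all genes tested had this order. It was chosen after the members' values were seen, and no other order was counted over all genes, so the comparison is not a test. Jun kept another order in both groups, highest in replicate 1 and lowest in replicate 3. In Klf6 every knockout library also lay above every control. Other genes of the lists, chosen after their values were seen, had the order of Fosb, Fosl2 and Klf6. Srf, which encodes serum response factor, held 119, 191 and 109 CPM in control replicates 1, 2 and 3 and 132, 201 and 93.5 CPM in the knockout replicates. Its matricellular target gene Ccn1 held 279, 443 and 246 CPM in the controls, against 374, 538 and 276 CPM in the knockouts. Cd44, the hyaluronan receptor gene, held 749.5, 984 and 677 CPM in the controls, against 812, 1039 and 612 CPM in the knockouts. The labels do not say what a replicate number stands for.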
